A study of Mus musculus with 17 samples.

Results

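Mural cells are the contractile and supporting cells that wrap blood vessels, and 9 of the 26131 genes in the count table were taken here as their markers by gene symbol. Vtn, Atp13a5 and Abcc9 mark brain pericytes, Pdgfrb, Rgs5 and Notch3 mark mural cells of both kinds, and Acta2, Myh11 and Tagln mark vascular smooth muscle. All 9 had a row in the table. Their unique molecular identifier (UMI) counts came from nuclei of posterior brain of 17 female mice, each 2.3 months old and a homozygous knock-in of the human transferrin receptor (TfR). These animals received saline (n = 4), a Malat1 antisense oligonucleotide alone (Malat1 ASO, n = 4), the oligonucleotide joined to an anti-TfR antibody (anti-TfR:Malat1, n = 6) or the oligonucleotide joined to a transport vehicle that binds TfR (OTV:Malat1, n = 3). Each was given intravenously in 4 doses over 24 days and tissue was taken 72 h after the last dose. The labelled dose was 2 mg/kg for the oligonucleotide alone and 50 mg/kg for both conjugates; the saline animals carry 50 mg/kg in the same field. Because every group carries the knock-in, no comparison here is with wild-type mice. The study asked how far each carrier delivers the oligonucleotide to the cells of the brain, of which mural cells are one type, by the fall of its target, the nuclear long non-coding RNA Malat1.

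Pericytes sit on capillaries, enclosed with the endothelium in a shared basement membrane, and are needed for the blood-brain barrier, while smooth muscle cells ring arterioles and set their diameter. Both are recruited by endothelial PDGF-BB acting on the receptor Pdgfrb, and both are kept in their mature state by Notch3, which receives Jag1 from neighbouring cells. Smooth muscle differs from pericytes by an abundant contractile apparatus, whose actin (Acta2), heavy-chain myosin (Myh11) and actin-binding transgelin (Tagln) are classical markers.

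The windows before the start sites of 4 members are shown because these genes were detected together in the same nuclei and yet differ in the letters they hold there. They come from RefSeq's annotation of GRCm38.p6, in which 6 of the 9 members had an entry, and each is written 5′ to 3′ along the gene's own strand and ends before the first transcribed base in RefSeq and, for Vtn and Abcc9, also in GENCODE. Vtn encodes vitronectin, a secreted matrix protein, and its window was chr11:78498870-78499090 on the + strand. Abcc9 encodes the sulfonylurea receptor SUR2 of the ATP-sensitive potassium channel, with the window chr6:142702316-142702524 on the - strand. Atp13a5 encodes a P5-type ATPase (chr16:29378733-29378982, - strand), and Notch3 the Notch receptor of mural cells (chr17:32166891-32167140, - strand). Capitals mark exact matches to TGGGAA, the core bound by the Notch partner RBPJ, to GGGCGG, the Sp1 box, and to TATAAA, each searched on both strands, so that a match on the other strand shows as the reverse complement.
Vtn promoter: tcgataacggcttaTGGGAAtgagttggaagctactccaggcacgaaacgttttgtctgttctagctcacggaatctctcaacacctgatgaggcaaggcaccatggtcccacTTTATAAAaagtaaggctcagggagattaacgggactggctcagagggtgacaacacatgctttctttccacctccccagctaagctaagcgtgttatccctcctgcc
Abcc9 promoter: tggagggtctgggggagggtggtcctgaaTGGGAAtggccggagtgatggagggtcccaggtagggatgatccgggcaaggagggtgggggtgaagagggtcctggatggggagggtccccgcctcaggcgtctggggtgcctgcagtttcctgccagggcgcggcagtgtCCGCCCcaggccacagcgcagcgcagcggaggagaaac
Atp13a5 promoter: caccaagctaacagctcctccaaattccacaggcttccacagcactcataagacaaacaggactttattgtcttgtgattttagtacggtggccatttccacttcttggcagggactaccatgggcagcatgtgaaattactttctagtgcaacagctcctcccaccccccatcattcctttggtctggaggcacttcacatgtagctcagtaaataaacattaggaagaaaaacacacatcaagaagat
Notch3 promoter: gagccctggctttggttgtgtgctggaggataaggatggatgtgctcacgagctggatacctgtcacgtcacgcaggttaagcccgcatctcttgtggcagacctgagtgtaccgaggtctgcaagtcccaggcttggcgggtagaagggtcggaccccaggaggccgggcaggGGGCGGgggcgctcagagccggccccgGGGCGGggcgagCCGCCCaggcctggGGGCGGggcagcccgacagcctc
In the whole 250 bases before the RefSeq start, of which the part that GENCODE transcribes is not printed for Vtn and Abcc9, Vtn held the RBPJ core once and the TATA letters in 2 overlapping matches on opposite strands, and Abcc9 held the RBPJ core once and the Sp1 box once. Notch3 held the Sp1 box 4 times, and Atp13a5 held none of the 3 motifs. Of the 6 members with a window, 3 held the RBPJ core (Acta2 the other one), 2 the Sp1 box and 1 the TATA letters, against 21.6%, 32.7% and 12.4% of 32851 windows, each also of the 250 bases before a RefSeq start. The CArG box, bound by serum response factor in smooth muscle genes, was searched only as CC, then 6 letters of A or T, then GG. That exact form was in none of the 6 windows and in 1.47% of all. Forms that differ from it by a letter were not searched, so the windows may hold such boxes. These are matches of letters only.

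The table held 284074 nuclei, 13841 to 18365 per animal with 55393588 to 79866411 UMIs per animal. The authors' deposited labels put 1226 nuclei (0.432%), 42 to 119 per animal, under vascular cells, of which 1203 were in 1 deposited cluster, 14. That cluster held 7405 nuclei, 64.7% of them labelled astrocytes and 15.5% neurons. These vascular nuclei held a median of 1100 UMIs and 43368 to 171058 UMIs per animal, and 5.71% of them were called doublets by the authors, against 16.8% of all nuclei. The label does not separate mural cells from endothelial cells or fibroblasts. Of the 273792 distinct barcodes, 3.67% occurred in more than 1 library, as did 81 of the 1225 barcodes of vascular nuclei (6.61%); 1 of these was vascular in more than 1 library. Limits given below for a count of 0 cover counting error only.

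The 6 pericyte and shared mural genes were all detected in the vascular nuclei of 17 of 17 animals, whereas the 3 smooth muscle genes together gave 36 UMIs. Levels are UMIs per 1000000 UMIs of the same nuclei (CPM), pooled over animals. Atp13a5 was at 1115 CPM (603 to 1561 over animals), Vtn at 639 CPM (260 to 1426) and Abcc9 at 253 CPM (147 to 395). Pdgfrb, the PDGF receptor, was at 484 CPM (231 to 738), Rgs5, a regulator of G-protein signalling that is among the most used pericyte markers, at 366 CPM (115 to 818), and Notch3 at 242 CPM (103 to 333). Acta2 was at 2.46 CPM from 4 UMIs in 2 nuclei, Tagln at 6.14 CPM from 10 UMIs in 7 nuclei and Myh11 at 13.5 CPM from 22 UMIs in 20 nuclei. Of the 6 well-detected genes, Vtn and Rgs5 had the widest ratio of highest to lowest animal. CPM is not scaled to length. The values per kilobase that follow divide CPM by the whole span of the gene, introns included, and so depend on that span. Per kilobase of gene, vascular CPM was 198 for Vtn, whose gene spans 3.234 kb, 12.1 for Pdgfrb, 9.09 for Rgs5, 7.59 for Atp13a5 across 146.882 kb, 5.25 for Notch3 and 2.21 for Abcc9, and 0.953, 0.169 and 0.139 for Tagln, Acta2 and Myh11.

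**Figure D1:**
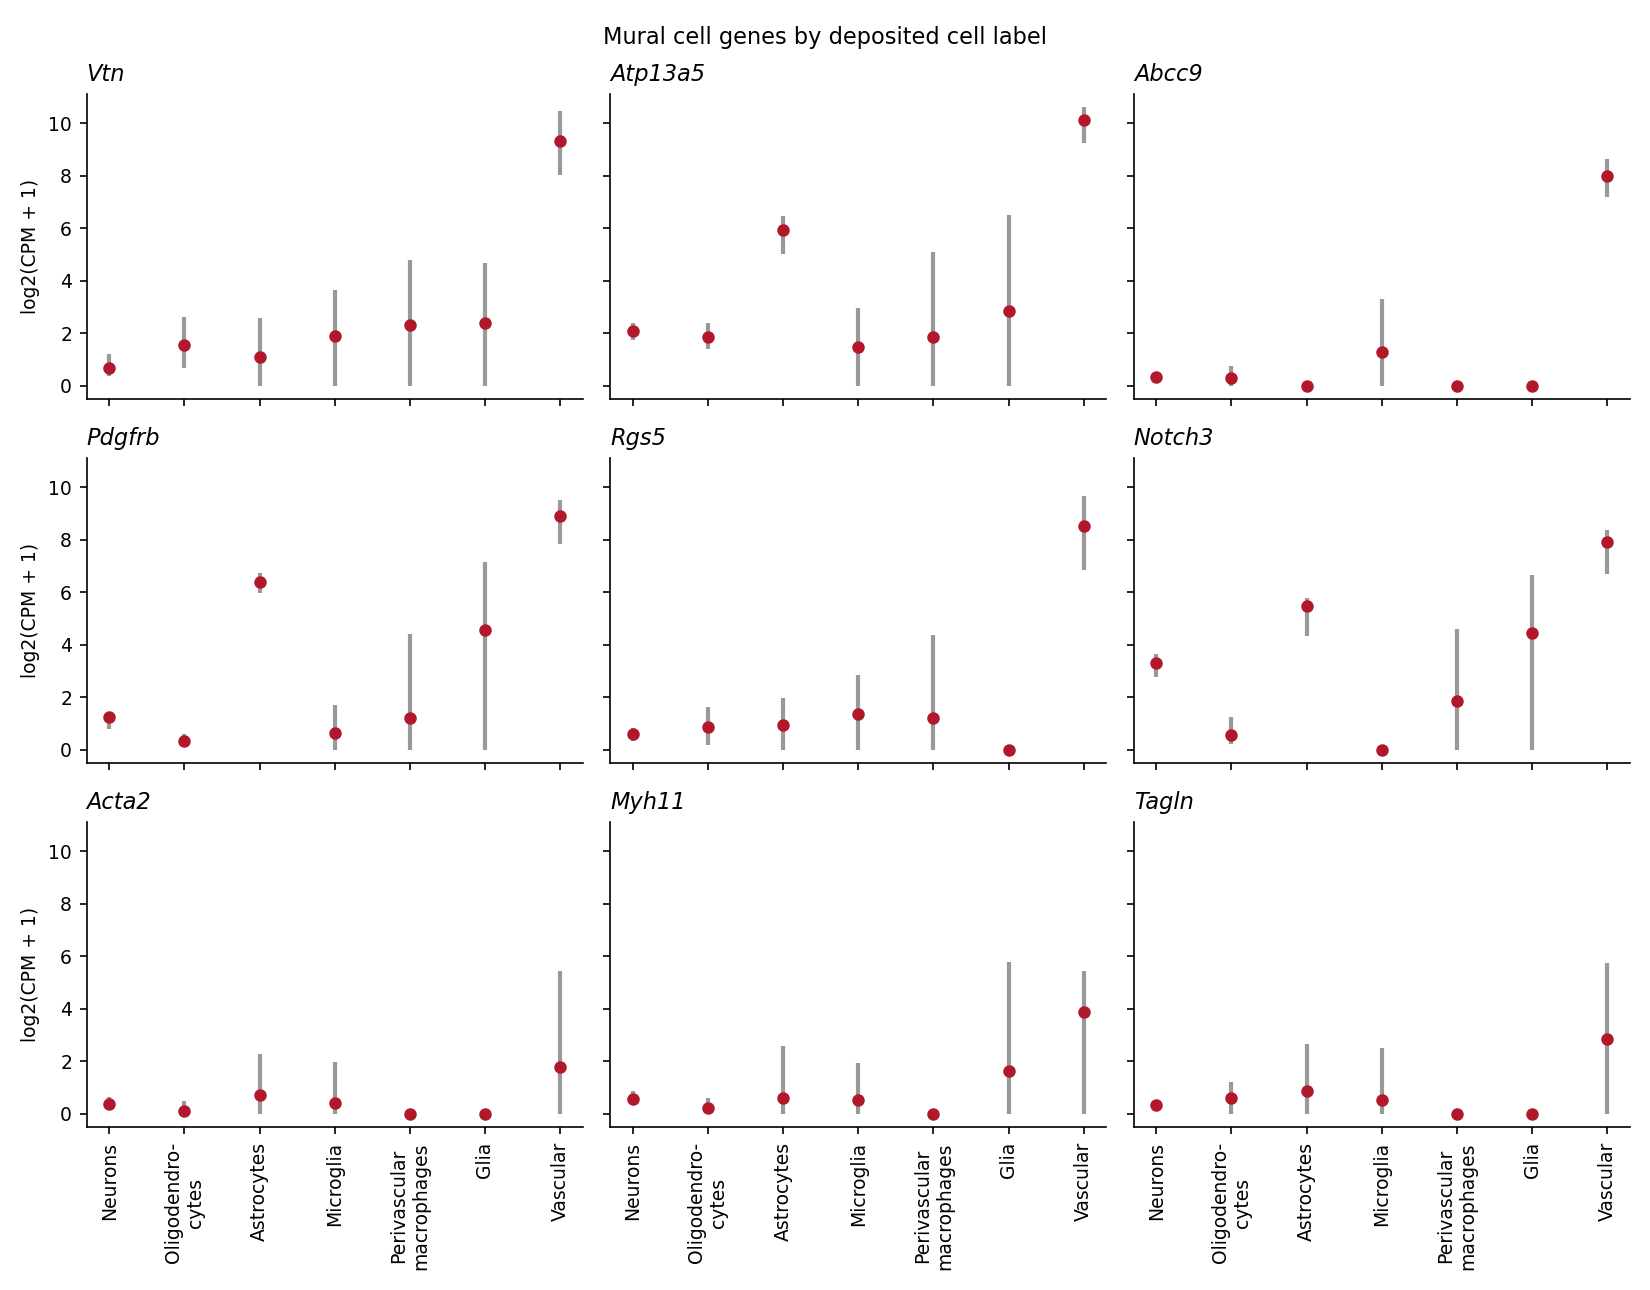
Level of each of the 9 genes under each deposited label, as log2(CPM + 1); points pool all animals and bars run from the lowest to the highest of 17 animals. The 6 pericyte and shared mural genes stand highest in vascular cells, Pdgfrb, Atp13a5 and Notch3 are next highest in astrocytes, and Acta2, Myh11 and Tagln stay low under every label.

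Against all other nuclei, the vascular label set the 6 genes far apart, as a description, since the authors' label was made from the same expression values. Abcc9 was 984 times higher in vascular nuclei (253 against 0.257 CPM), Vtn 838 times, Rgs5 662 times, Atp13a5 308 times and Pdgfrb 247 times. Notch3 was 29.5 times higher (242 against 8.20 CPM). Each of the 6 was higher in the vascular nuclei of 17 of 17 animals; Myh11 was higher in 9, Tagln in 5 and Acta2 in 1. Vascular nuclei held 59.4% of all UMIs of Abcc9 in the table, 55.4% of those of Vtn, 49.5% of those of Rgs5, 31.4% of those of Atp13a5 and 26.8% of those of Pdgfrb, but 4.19% of those of Notch3. As a share of nuclei with a UMI, Vtn was in 26.8% of vascular nuclei (17.9% after thinning each nucleus of more than 500 UMIs to 500). In neurons, which should lack Vtn, it was in 0.281% at a median depth of 4614 UMIs (0.0400% thinned). The neuron share serves as a background for neurons only, since Vtn was higher in neurons than in oligodendrocytes in 0 of 17 animals. By cluster, Vtn was at 1.99 and 2.34 CPM in clusters 0 and 2, mainly oligodendrocytes, and 3.45 CPM in cluster 11, mainly microglia. It was at 0.839 CPM in cluster 1 and 3.07 CPM in cluster 16, both mainly labelled neurons.

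Outside the vascular label, Pdgfrb, Atp13a5 and Notch3 had a second, lower level in nuclei labelled astrocytes that Vtn, Abcc9 and Rgs5 did not share. Of these astrocytes, 4793 (96.4%) were in the cluster that holds most vascular nuclei. Over the 4972 astrocytes Pdgfrb was at 83.9 CPM (62.3 to 105 over 17 animals, 814 UMIs in 724 nuclei), Atp13a5 at 59.7 CPM (31.7 to 86.9) and Notch3 at 43.4 CPM (19.2 to 54.4). Vtn was at 1.13 CPM and Rgs5 at 0.928 CPM there, and Abcc9 had 0 UMIs, which allows up to 0.309 CPM at 3 UMIs. Each of the 3 genes was higher in astrocytes than in neurons in 17 of 17 animals, and the vascular level was 5.76, 18.7 and 5.57 times the astrocyte level for Pdgfrb, Atp13a5 and Notch3. Thinned to 500 UMIs, a UMI of Pdgfrb was in 4.21% of astrocytes, of Atp13a5 in 2.81% and of Notch3 in 2.19%; for Pdgfrb the same share was 0.0629% of neurons and 0.0110% of oligodendrocytes. Of the 724 astrocytes with a UMI of Pdgfrb, 722 had none of Vtn, Abcc9 or Rgs5. Atp13a5 was in 9.94% of those 724 and in 10.1% of the other astrocytes, and Notch3 in 9.67% and 7.06%. In vascular nuclei the first of these pairs stood at 61.4% of nuclei with Pdgfrb and 13.6% of those without.

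Notch3 also differed from the other members in neurons. Neurons held 8517 of its UMIs, in 8066 nuclei (4.17%, or 0.423% thinned), at 8.78 CPM, against 3.19 CPM for Atp13a5 and 1.33 CPM for Pdgfrb. These CPM are not scaled to length, and the 3 genes span 46.033, 146.882 and 39.912 kb. The median Notch3 level over animals was 16.1 CPM in the authors' cluster 1, 16.7 CPM in cluster 4 and 12.9 CPM in cluster 10, and 2.42 CPM in cluster 7 and 2.48 CPM in cluster 9. Microglia had 0 UMIs of Notch3. Notch3 shares 21024 bases with the antisense gene Gm17276 and Abcc9 shares 11868 bases with 5330439B14Rik; the sources used here do not say whether the counting used strand, and reads of these partners may be mixed. Tagln shares 3627 bases with the antisense gene Gm48529 and 108 bases with Pcsk7 on the other strand.

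Within vascular nuclei, the pericyte genes occurred together. Summed over Vtn, Atp13a5 and Abcc9, 739 nuclei had 0 UMIs, 92 had 1 and 114 had 10 or more. Atp13a5 was in 91.9% of nuclei with a UMI of Abcc9 and in 17.5% of those without, and in 88.8% of nuclei with Notch3 and 17.5% of those without. It was in 72.3% of nuclei with Vtn and 16.04% of the others. Pdgfrb was in 74.4% of nuclei with Abcc9 and in 28.1% of the rest. At least 4 of the 6 pericyte and shared genes were found in 261 vascular nuclei (21.3%), and in 22 of the 282848 nuclei under other labels. Of those 22, the authors called 14 doublets (63.6%) and labelled 20 neurons; their median depth was 6312.5 UMIs. Deeper nuclei have more chance of a second gene, and its part in these co-detections was not tested.

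**Figure D2:**
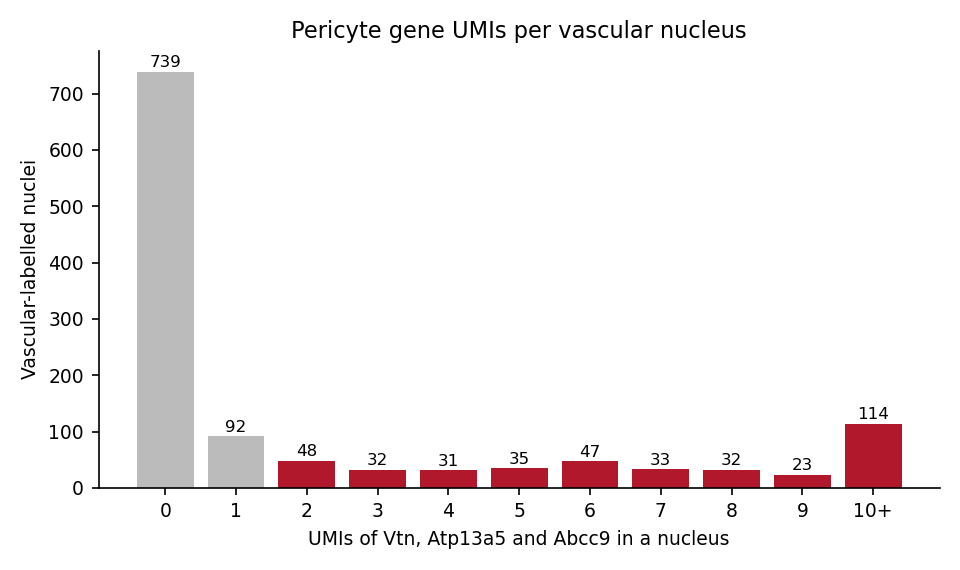
Number of vascular nuclei by their summed UMIs of Vtn, Atp13a5 and Abcc9. The bar at 0 holds 739 nuclei, the bar at 1 holds 92 and the last bar, 10 or more, holds 114.

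Nuclei with 2 or more UMIs over Vtn, Atp13a5 and Abcc9, and more of them than of Acta2, Myh11 and Tagln, were called pericyte-led, and the reverse smooth muscle-led. By that rule 394 vascular nuclei (32.1%) were pericyte-led and 2 were smooth muscle-led. Just outside this threshold lay 92 nuclei with 1 pericyte UMI, and 47 of the 48 nuclei with 2 lay just inside. The remaining 830 nuclei held 516 led by fibroblast-like markers such as Slc6a13 and Col1a2, 164 led by endothelial markers such as Flt1 and Cldn5, and 150 led by neither. So 42.1% of the label was fibroblast-led, more nuclei than were pericyte-led. The smooth muscle genes Acta2, Myh11 and Tagln did not mark a population here. Any of the 3 was found in 27 vascular nuclei, 23 of them with a single UMI, and 22 of the 27 were pericyte-led: 5.58% of pericyte-led nuclei had a smooth muscle UMI, against 0.361% of the other 830. Both smooth muscle-led nuclei came from OTV:Malat1 animal 2, and 1 of them held all 3 smooth muscle genes, with 3 UMIs of Acta2, 1 of Myh11 and 3 of Tagln. It also held 2 of Atp13a5 and 3 of the endothelial tight-junction gene Cldn5. Cnn1, Myocd and Actg2, further smooth muscle genes, had 0 UMIs in vascular nuclei, which allows up to 1.84 CPM at 3 UMIs each, and desmin (Des) was at 7.98 CPM. Fewer nuclei of a type and less RNA per nucleus cannot be told apart in such sums.

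The shared mural genes Pdgfrb, Rgs5 and Notch3 took no part in that split, and all 3 were higher in pericyte-led nuclei than in the 830 others in 17 of 17 animals. This comparison was chosen after the data were seen, in place of pericyte-led against smooth muscle-led nuclei, which 2 nuclei of 1 animal could not carry. Notch3 ran from 420 to 974 CPM over animals in pericyte-led nuclei, with a median of 722 CPM, and from 0 to 145 CPM, median 32.2, in the others. Pdgfrb ran from 759 to 1525 CPM (median 1234) against 79.2 to 421 CPM (median 207), and Rgs5 from 338 to 1726 CPM (median 898) against 0 to 326 CPM (median 138). The ranges of the 2 kinds of nuclei did not overlap for any of the 3, and 1.27% of all genes tested were higher in pericyte-led nuclei without overlap. In edgeR's quasi-likelihood test with the animal as a block, the log2 fold change of Pdgfrb was 2.43 (SE 0.17, adjusted p 1.2e-18). In the same fit it was 4.09 for Notch3 (SE 0.26) and 2.73 for Rgs5 (SE 0.22). Of all 4863 genes tested, 6.79% were called higher and 13.9% lower, 20.7% in all. The call of Pdgfrb, which passed the count filter through either kind of nuclei, held in 26 of 26 alternatives, of which 17 leave out an animal from the same split. The split was drawn from Vtn, Atp13a5 and Abcc9, which are co-detected with Pdgfrb in these same nuclei. The value and p of Pdgfrb thus describe that split and are no independent test. Notch3 and Rgs5 passed the filter only through the pericyte-led nuclei, where they are high, so their values are a description. Pericyte-led nuclei had a median of 980 UMIs, fibroblast-led ones 1239 and endothelial-led ones 1049.

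**Figure D3:**
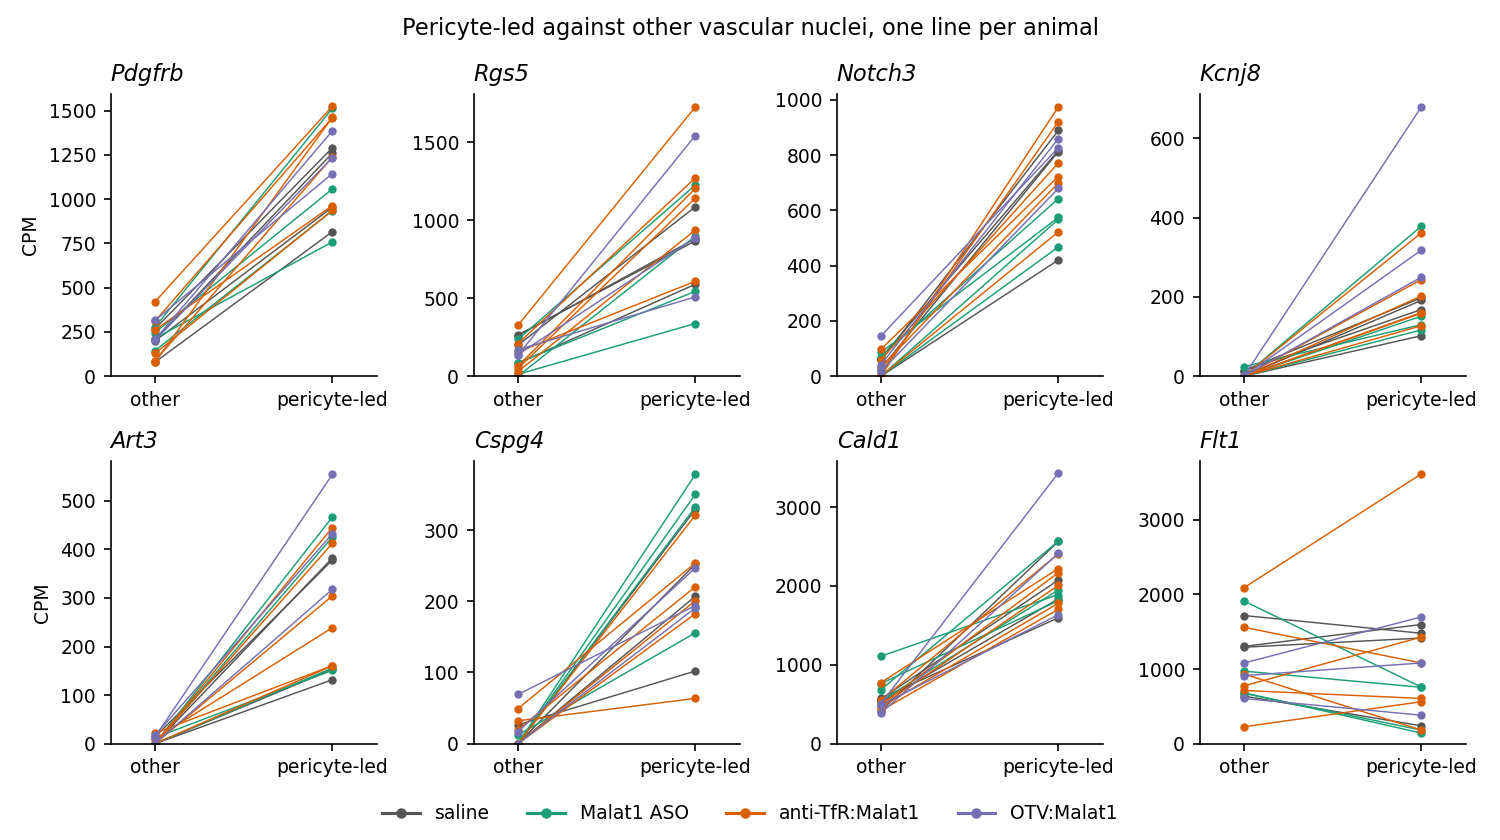
CPM of 8 genes in other vascular nuclei and in pericyte-led nuclei, with 1 line per animal and colours for the 4 groups. Lines for Pdgfrb, Rgs5, Notch3, Kcnj8, Art3, Cspg4 and Cald1 climb from left to right in 17 of 17 animals; lines of the endothelial gene Flt1 run in both directions.

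Among the other vascular nuclei the shared genes had different levels, given as a description. Pdgfrb was at 186 CPM in fibroblast-led nuclei, with 0 UMIs in the 164 endothelial-led ones. Rgs5 was the other way round, at 620 CPM in endothelial-led nuclei (138 UMIs, in 40.2% of them) and 0 UMIs in the 516 fibroblast-led ones. Notch3 was at 6.76 CPM in fibroblast-led and 35.96 CPM in endothelial-led nuclei. The 150 nuclei led by neither held Pdgfrb at 508 CPM and Notch3 at 175 CPM. Pericyte-led nuclei themselves were not free of other cells' RNA: 90 of 394 (22.8%) held at least 2 endothelial or fibroblast-like UMIs, and summed endothelial markers were at 2768 CPM in them against 3058 CPM in the others. Without those 90 nuclei the log2 fold changes were 4.37 for Notch3, 2.59 for Pdgfrb and 2.38 for Rgs5.

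Of 20 further pericyte genes, 12 were tested. Art3, Cspg4, Kcnj8, Ndufa4l2, P2ry14 and Rgs4 passed the count filter only through the pericyte-led nuclei, where they are high, so no count or median over the 12 is given and their values are a description. The other vascular nuclei were at 0 in 14 of 17 animals for Kcnj8, 12 for Ndufa4l2, 11 for Art3 and 10 for Cspg4. Art3, an ADP-ribosyltransferase family member, had a log2 fold change of 5.23 (SE 0.34), from 5.20 ± 7.61 to 310.0 ± 138 CPM (SD, n = 17). Kcnj8, which encodes the Kir6.1 pore that SUR2 (Abcc9) regulates, was at 5.12 (SE 0.39), from 3.06 ± 7.11 to 231 ± 142 CPM (SD, n = 17). Ndufa4l2, the NG2 proteoglycan gene Cspg4, the purinergic receptor P2ry14 and Rgs4 were at 4.15, 3.70, 3.11 and 3.11. The transcription factor Ebf1, which passed the filter through either kind of nuclei, was higher by 1.96. Tbx18, a T-box factor used to trace mural cells, passed the filter only through the other nuclei and was lower in pericyte-led ones (-1.18, SE 0.26), with 2 of 17 animals higher in pericyte-led nuclei. Slc6a20a, Anpep, Zic1 and Slc6a12 were not called.

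Of 22 further smooth muscle genes, 7 were tested. Caldesmon (Cald1), an actin-binding regulator of contraction, passed the filter through either kind of nuclei and was higher in pericyte-led ones (1.80, SE 0.14), from 574 ± 177 to 2121 ± 459 CPM (SD, n = 17). The myosin light chain Myl9 (2.67, SE 0.34) and its kinase Mylk (2.18, SE 0.29) passed the filter only through the pericyte-led nuclei, and the integrin subunit Itga8 (-2.14, SE 0.42) only through the others. Mrvi1, Tpm1 and Sorbs2 were not called. Acta2, Myh11 and Tagln were at 2.06, 41.1 and 6.17 CPM in pericyte-led nuclei.

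Of 22 ligands, receptors and targets of mural signalling, 9 were tested. The Notch target Heyl (3.75, SE 0.44) and the endothelin receptor Ednra (2.64, SE 0.26) passed the filter only through the pericyte-led nuclei, Heyl with 52 UMIs there against 6 in the others. The TGF-beta receptor Tgfbr1 (-1.50, SE 0.26) passed only through the other nuclei. The Tie2 ligand Angpt1, which passed through the sum of both kinds' animals, was lower in pericyte-led nuclei (-1.54, SE 0.34). Jag1, Tek, Eng, Acvrl1 and Tgfbr2 were not called. As for other cell types, the 5 tested fibroblast-like markers had lower values in pericyte-led nuclei. So had the endothelial Abcb1a (-0.95, SE 0.30) and the astrocyte gene Gja1 (-2.79, SE 0.39), and each of these genes passed the filter only through the others. The other 6 tested endothelial markers were not called: Cldn5 (-0.13), Ly6c1 (-0.13), Pecam1 (-0.17), Tek (-0.32), Flt1 (-0.35) and Slco1a4 (-0.58). The other tested astrocyte gene, Slc1a2 (0.25, SE 0.33), was not called either. The call of Abcb1a was lost in 4 of 26 alternatives. Outside every list, the 5 genes with the largest positive values all passed the filter only through the pericyte-led nuclei, and the 5 with the most negative only through the others. The first were Atp2a3, a sarco/endoplasmic reticulum calcium pump with 69 UMIs against 0 (at least 53.9-fold higher, at 3 UMIs over the group), the amino acid transporter family member Slc38a11 (5.66, SE 0.29), Gm36823 (4.99), the leukotriene receptor Cysltr2 (4.75) and the dystrophin-associated syntrophin Sntb1 (4.63). The second were Adamtsl3 (0 UMIs against 365, at least 51.9-fold lower), the guidance ligand Slit2 (-5.02), the bicarbonate transporter Slc4a10 (-4.39), the tissue factor gene F3 (-4.31) and the hyaluronidase gene Cemip (-4.25).

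By treatment, none of the 9 genes passed the test in any comparison, nor did the target itself in vascular nuclei. Malat1 ran from 82742 to 117738 CPM in vascular nuclei of saline animals, from 67752 to 101103 with Malat1 ASO, from 67683 to 103256 with anti-TfR:Malat1 and from 68152 to 83276 with OTV:Malat1. Its log2 fold change against saline was -0.23 (SE 0.19), -0.36 (SE 0.17) and -0.42 (SE 0.20), with adjusted p from edgeR of 0.999, 0.9995 and 0.924. Each of the 4 batches in the deposited metadata held 1 saline animal, batch 1 held no OTV:Malat1 animal, and the main fits had no batch term. Malat1 in vascular nuclei was below the saline animal of the same batch in 13 of 13 treated animals, a count made after the data were seen. The share of all genes with such a count was not computed. Pooled over animals, Malat1 was at 46432 CPM in endothelial-led, 93398 in fibroblast-led and 102603 in pericyte-led nuclei. Endothelial-led nuclei made up 4.76% to 24.5% of an animal's vascular nuclei, and their part in these Malat1 values was not tested. With batch as a block the log2 values were -0.24, -0.35 and -0.35, with adjusted p of 0.934, 0.99998 and 0.827 from edgeR. All comparisons with saline share the same 4 animals.

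Of the 6 members that could be tested in vascular nuclei, Abcc9 had the largest log2 change against saline. Its vascular CPM was 210, 179, 227 and 147 in the saline animals and 206, 338, 166 and 185 with Malat1 ASO. With anti-TfR:Malat1 it ran from 198 to 395 with a median of 302, and with OTV:Malat1 it was 239.7, 391 and 333. All 3 OTV:Malat1 animals and 5 of 6 anti-TfR:Malat1 animals lay above every saline animal, as did 1 of 4 with Malat1 ASO. Of all 3312 genes tested, 107 (3.23%) had every OTV:Malat1 animal above every saline animal. Group means were 191 ± 35.6 (SD, n = 4), 224 ± 77.9 (SD, n = 4), 304 ± 65.9 (SD, n = 6) and 321 ± 76.3 CPM (SD, n = 3). The log2 fold change against saline was 0.72 for OTV:Malat1 (SE 0.28, 95% interval 0.17 to 1.28), 0.60 for anti-TfR:Malat1 (SE 0.24, interval 0.13 to 1.08) and 0.17 for Malat1 ASO (SE 0.27, interval -0.37 to 0.70). In edgeR's test unadjusted p was 0.0176, 0.0205 and 0.550, and adjusted p over 3312 genes was 0.864, 0.9995 and 0.999. With the batch of the deposited metadata as a block the values were 0.73, 0.64 and 0.15. Within batches, Abcc9 was above the saline animal in 2 of 4 Malat1 ASO, 6 of 6 anti-TfR:Malat1 and 3 of 3 OTV:Malat1 animals. Atp13a5, Pdgfrb and Notch3 were also above it in 3 of 3 OTV:Malat1 animals, Vtn and Rgs5 in 1 of 3. Over the 13 treated animals the count was 11 for Abcc9, 10 each for Vtn, Atp13a5 and Pdgfrb, 8 for Notch3 and 5 for Rgs5. The share of all genes with such counts was not computed. No gene was called in any of these comparisons (0% of 3312, and 0 by DESeq2), and 171 genes (5.16%), 79 genes (2.39%) and 142 genes (4.29%) had an unadjusted p under 0.05.

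Vtn, the matrix protein of pericytes, was at 491, 774, 372 and 556 CPM in saline animals and at 534, 823, 481 and 790 CPM with Malat1 ASO. It ran from 260 to 988 with a median of 542 for anti-TfR:Malat1, and was 728, 1426 and 438 for OTV:Malat1. The groups overlapped, and OTV:Malat1 animal 2 was the highest of all 17. Within batches, Vtn was above the saline animal in 4 of 4 Malat1 ASO, 5 of 6 anti-TfR:Malat1 and 1 of 3 OTV:Malat1 animals. The log2 fold change of OTV:Malat1 against saline was 0.68 (SE 0.36, interval -0.03 to 1.40), and 0.62 against anti-TfR:Malat1 (SE 0.34, interval -0.04 to 1.28), a comparison in which 143 genes (4.32%) had an unadjusted p under 0.05 and 0% were called. Without OTV:Malat1 animal 2 the 2 values were 0.11 and 0.03. Atp13a5 was at 1561, 972, 796 and 955 CPM in saline animals, 871, 1322, 831 and 1395 with Malat1 ASO, 603 to 1362 (median 1197) with anti-TfR:Malat1 and 1263, 961 and 1403 with OTV:Malat1. Its changes against saline were the smallest of the 6, at -0.01 (interval -0.51 to 0.48), -0.0018 (-0.45 to 0.45) and 0.15 (-0.39 to 0.68) for Malat1 ASO, anti-TfR:Malat1 and OTV:Malat1.

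**Figure D4:**
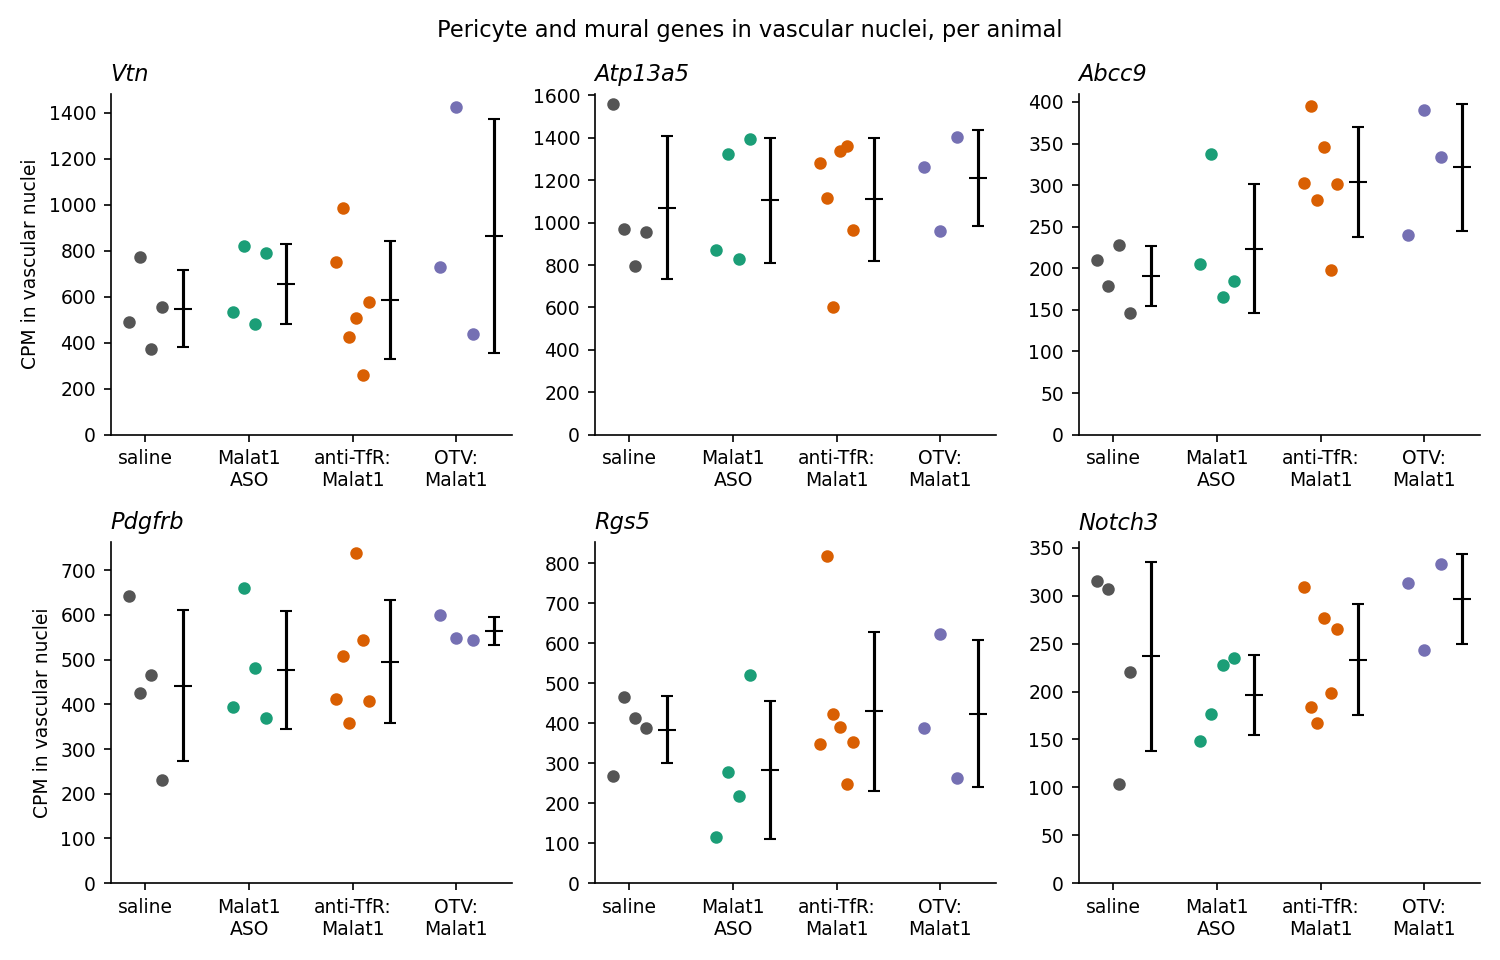
CPM of the 6 tested genes in vascular nuclei, 1 point per animal, with the mean and SD of each group beside the points. OTV:Malat1 lies above saline without overlap for Abcc9 (239.7 to 391 against 147 to 227 CPM), as it does for 3.23% of all genes tested.

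Among the shared mural genes, Pdgfrb was at 643, 426, 465 and 231 CPM in saline animals, 395, 661, 481 and 370 with Malat1 ASO, 359 to 738 (median 460) with anti-TfR:Malat1 and 599, 549 and 544 with OTV:Malat1. Rgs5 was at 269, 466, 414 and 388 CPM in saline animals, 115, 279, 219 and 521 with Malat1 ASO, 248 to 818 (median 373) with anti-TfR:Malat1 and 387, 623 and 263 with OTV:Malat1. Both genes overlapped between every pair of groups. Rgs5 had the lowest log2 value of the members, -0.54 for Malat1 ASO against saline (SE 0.37, interval -1.27 to 0.19). It was -0.94 without Malat1 ASO animal 4, the highest of that group, -0.27 without animal 1, the lowest, and -0.26 without the nuclei called doublets. Notch3 was at 316, 307, 103 and 220 CPM in saline animals, 148, 176, 227 and 235 with Malat1 ASO, 167 to 309 (median 232) with anti-TfR:Malat1 and 313, 243 and 333 with OTV:Malat1. The groups overlapped in each comparison that was tested. The log2 value of Notch3 against saline was -0.33 for Malat1 ASO (interval -0.92 to 0.25). The intervals against saline reached from -1.27 (Rgs5, Malat1 ASO) to 1.40 (Vtn, OTV:Malat1), and a p that misses the threshold does not show that the groups were alike.

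**Figure D5:**
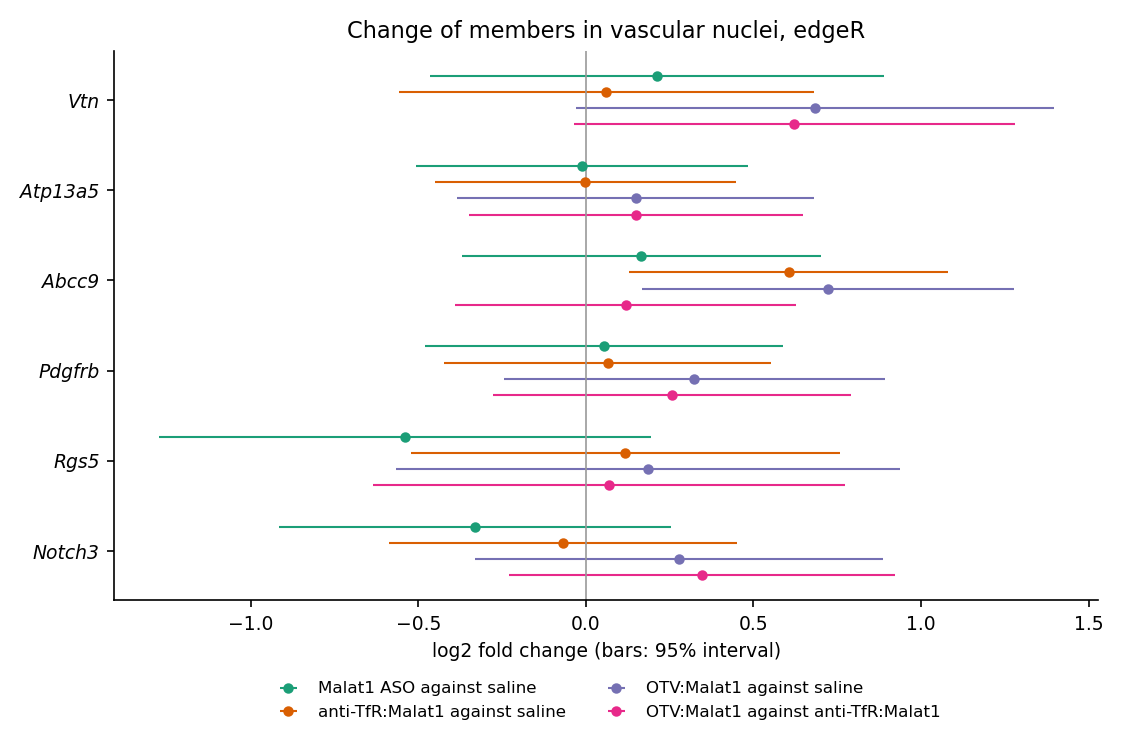
Log2 fold change of the 6 tested genes in vascular nuclei for the 4 comparisons. Bars are 95% intervals by the normal distribution, from an SE computed from edgeR's F statistic. The bars cross 0 except for Abcc9 with anti-TfR:Malat1 (0.60) and OTV:Malat1 (0.72) against saline, whose p-values did not pass after adjustment over all genes.

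The median log2 change of the 6 tested members was 0.02 for Malat1 ASO, 0.06 for anti-TfR:Malat1 and 0.30 for OTV:Malat1 against saline, and 0.20 for OTV:Malat1 against anti-TfR:Malat1, beside medians of 0.00, 0.00, -0.01 and -0.01 over all 3312 genes. Acta2, Myh11 and Tagln were under the count filter. Acta2 had 0 UMIs in 16 animals and 4 in OTV:Malat1 animal 2. Myh11 had 10 UMIs over the 4 saline animals, 1 with Malat1 ASO, 4 with anti-TfR:Malat1 and 7 with OTV:Malat1; all 4 saline animals had at least 1. In CPM, Myh11 was 9.92 to 42.0 in saline animals and 0 to 8.74 with Malat1 ASO, on these 10 and 1 UMIs. The lowest saline value and the highest Malat1 ASO value rest on 1 UMI each and differ only by the animals' UMI totals. The share of all genes without overlap was not computed for this comparison. Over all nuclei, the log2 value of Myh11 for Malat1 ASO against saline was 0.22 (SE 0.28). Tagln had 2, 1, 1 and 6. Of the further lists, 10 of 20 pericyte, 7 of 22 smooth muscle and 7 of 22 signalling genes were tested in vascular nuclei and none was called. Their median log2 changes for OTV:Malat1 against saline were 0.31, -0.02 and -0.09. The same medians were -0.33 over 7 endothelial and -0.41 over 5 fibroblast-like markers.

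Among markers of other cells, the oligodendrocyte, neuronal and astrocyte sums had their highest medians with OTV:Malat1. The 3 oligodendrocyte markers summed to 600 to 863 CPM (median 770.0) in saline animals, 773 to 970 (median 915) with Malat1 ASO, 372 to 945 (median 701) with anti-TfR:Malat1 and 842 to 1342 (median 1254) with OTV:Malat1. The 3 neuronal markers summed to 590 to 1143 CPM (median 917), 779 to 1479 (median 1093), 734 to 1219 (median 878) and 666 to 1736 (median 1374) in the same order. Summed astrocyte markers ran from 115 to 222 CPM (median 181), 181 to 382 (median 231), 64.2 to 186 (median 155) and 184 to 246 (median 232). Summed endothelial markers in vascular nuclei ran from 1029 to 4941 CPM in saline animals, 1011 to 3714 with Malat1 ASO, 1130 to 7252 with anti-TfR:Malat1 and 1719 to 4363 with OTV:Malat1, and summed fibroblast-like markers from 1301 to 2210, 1546 to 2877, 1453 to 2266 and 1484 to 1954 CPM. Their part in the members' values was not tested. Pericyte-led nuclei made up 30.2% ± 8.74 of vascular nuclei in saline animals (SD, n = 4), 33.0% ± 2.09 with Malat1 ASO (SD, n = 4), 29.3% ± 6.35 with anti-TfR:Malat1 (SD, n = 6) and 35.7% ± 1.83 with OTV:Malat1 (SD, n = 3). By batch, this share was 42.9%, 29.2%, 24.1% and 24.7% in the saline animals of batches 1 to 4. With OTV:Malat1, which had no animal in batch 1, it was 37.8%, 34.7% and 34.5% in batches 2 to 4. The part of this share in the members' values was not tested. Within pericyte-led nuclei alone, 3 members could be tested among 530 genes and none was called (0% of genes called in each of the 4 comparisons by edgeR, with 5.09%, 2.64%, 1.89% and 2.64% at an unadjusted p under 0.05; DESeq2 called 1 gene with anti-TfR:Malat1, 0.189%, not a member). Their largest values were -0.43 for Notch3 with Malat1 ASO (SE 0.25) and 0.38 for Rgs5 with anti-TfR:Malat1 (SE 0.36). Malat1 itself was at -0.14 (SE 0.14), -0.32 (SE 0.13) and -0.33 (SE 0.15) in pericyte-led nuclei against saline, also not called. Abcc9, which the split used, was at 657 ± 153 CPM in pericyte-led nuclei of saline animals (SD, n = 4), 723 ± 251 with Malat1 ASO (SD, n = 4), 1080 ± 194 with anti-TfR:Malat1 (SD, n = 6) and 971 ± 217 with OTV:Malat1 (SD, n = 3).

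Summed over all nuclei of an animal, all 9 genes entered the test and again 0 of 9 were called, beside 0% of 21375 genes; 0.604%, 1.21%, 1.11% and 1.61% had an unadjusted p under 0.05, and DESeq2 called 1 gene with OTV:Malat1 (0.00468%), not a member. The largest member values were 0.65 for Vtn with OTV:Malat1 (SE 0.38) and -0.45 for Rgs5 with Malat1 ASO (SE 0.30), both against saline. Abcc9 over all nuclei was at 0.25 (SE 0.24) with OTV:Malat1 and 0.30 (SE 0.21) with anti-TfR:Malat1 against saline. Its CPM overlapped there, at 0.614 to 0.792 with OTV:Malat1 and 0.408 to 0.772 in saline animals. Malat1 over all nuclei was at -0.05 (SE 0.18), -0.17 (SE 0.16) and -0.84 (SE 0.20) against saline for Malat1 ASO, anti-TfR:Malat1 and OTV:Malat1, and at -0.67 (SE 0.18) for OTV:Malat1 against anti-TfR:Malat1. In edgeR's test its unadjusted p was 4.6e-04 and 0.0019 in the 2 comparisons of OTV:Malat1, and its adjusted p 0.99999 and 0.997. The share of nuclei with the vascular label was 0.535% ± 0.177 in saline animals (SD, n = 4), 0.423% ± 0.109 with Malat1 ASO (SD, n = 4), 0.405% ± 0.181 with anti-TfR:Malat1 (SD, n = 6) and 0.399% ± 0.0704 with OTV:Malat1 (SD, n = 3). In exact two-sided permutation tests p was 0.343, 0.295 and 0.286 against saline and 1 between the conjugates (adjusted over the 4 comparisons 0.457, 0.457, 0.457 and 1). The smallest p these groups allow is 0.0286, 0.00952, 0.0571 and 0.0238, so that OTV:Malat1 against saline could not have passed 0.05. Permuted within batches the differences against saline were -0.112, -0.108 and -0.0531 percentage points (exact permutation p 0.125, 0.0556 and 0.750). The smallest p possible within batches is 0.125, 0.0556 and 0.25, so none of these could pass, and the first 2 are at that limit. The share was below that of the saline animal of the same batch in 4 of 4 Malat1 ASO, 6 of 6 anti-TfR:Malat1 and 2 of 3 OTV:Malat1 animals. Batch 1, which held no OTV:Malat1 animal, had the highest share of each other group. These shares were 0.786% with saline, 0.570% with Malat1 ASO and 0.730% with anti-TfR:Malat1, so the pooled difference of OTV:Malat1 from saline mixes batch with treatment.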

How the data were processed

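Per the labels' protocols, frozen posterior brain was homogenised and DAPI-stained nuclei were sorted straight into 10x Genomics reactions. The submitters' processing notes name Cell Ranger 6.0.1, Seurat 4 and the build mm10, and the authors deposited raw UMI counts of 26131 genes with labels, clusters, batches and doublet calls per nucleus. Doublet and label scores were deposited as scores; the scores were not used in any test, and the sources used here do not say how labels, doublets and filters were set. The 9 genes and the further lists were chosen with earlier results of these data known. Genes were named by 1 rule: the members, the targeted RNA Malat1, genes of the lists, with values where they passed the test or place a member and otherwise by name only, and up to 5 other genes each way with the largest change in the split of vascular nuclei. Library totals were 55393588 to 79866411 UMIs per animal.

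Counts were summed per animal over vascular, pericyte-led or all nuclei, with at least 20 vascular and 10 pericyte-led nuclei, filtered with filterByExpr (minimum count 10, or 2 for the split of vascular nuclei), scaled by TMM and tested with edgeR 4.0.16 (glmQLFit, glmQLFTest) with all 4 groups in 1 fit. P was adjusted by Benjamini-Hochberg across the genes of each fit and called under 0.05. DESeq2 1.42.0 was an alternative, as were RLE factors, no count filter, batch and replicate blocks, doublets left out, nuclei of 1000 or more UMIs and each animal left out. In the split of vascular nuclei, nuclei of each kind were summed per animal where it had at least 3. Scripts were tested on simulated data. Animals are the labels' separate samples; litters or cages are not named. The replicate number equals the deposited batch in 4 of 4 saline, 4 of 4 Malat1 ASO, 3 of 6 anti-TfR:Malat1 and 0 of 3 OTV:Malat1 animals, so numbers tie saline and Malat1 ASO animals to shared batches but do not pair the other groups throughout. Doublets were kept in the main values. Thinned shares used the expected share after thinning each deeper nucleus to 500 UMIs. Shallower nuclei were kept with their counts unthinned, so depth was matched only from above.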

Additional observations from a re-analysis of the deposited data

Results flagged for a closer look

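In groups of 4 to 6 animals, each gene's highest or lowest value was set against the gap to its nearest neighbour; 61 groups of values were tested this way, 4 stood apart, and chance gives 3.05 at 5%. Pdgfrb over all nuclei was at 4.49 CPM in saline animal 1, the animal with the most vascular nuclei, against 2.04 to 2.35 CPM in the other saline animals. Rgs5 in vascular nuclei was at 818 CPM in anti-TfR:Malat1 animal 2, against 248 to 423 CPM in the other 5. Notch3 in pericyte-led nuclei was at 420 CPM in saline animal 3, against 812 to 889 CPM in the other saline animals. Myh11 over all nuclei was at 0.801 CPM in Malat1 ASO animal 4, against 0.3997 to 0.454 CPM in the other animals of its group.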

How the results depend on the processing

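The count of called members was 0 for the 12 comparisons (4 contrasts in vascular, pericyte-led and all nuclei) under each of their 210 alternatives, with 102 that leave out an animal. The main edgeR fits of these comparisons called 0% of all genes, so a constant 0 is not particular to the members. Among the alternatives, the share of all genes called is given only for DESeq2. The share of vascular nuclei had exact permutation p of 0.0556 to 1 over 50 alternatives, of which those within batches cannot go below 0.0556 to 0.25 and say nothing of stability. Its difference in percentage points, leaving out each animal in turn, ran from -0.163 to -0.0282 for Malat1 ASO, -0.195 to -0.0463 for anti-TfR:Malat1 and -0.188 to -0.0531 for OTV:Malat1 against saline. Between the conjugates it ran from -0.0435 to 0.0581, and within batches it was 0.0722 beside -0.00676 pooled. In the split of vascular nuclei, 330 genes were higher and 676 lower; these became 172 and 173 with the default count filter, which tests fewer genes, 196 higher with nuclei of 1000 or more UMIs, and 1214 lower with no filter, and leaving out each animal gave 307 to 335 and 569 to 676.

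In vascular nuclei, Abcc9 kept its direction against saline over 18 alternatives for OTV:Malat1 (log2 0.52 to 1.08, adjusted p from edgeR or DESeq2 0.724 to 0.9998) and 21 for anti-TfR:Malat1 (0.46 to 0.71, adjusted p 0.872 to 1). Vtn for OTV:Malat1 against saline ran from 0.11 to 1.44. Members that were called in neither setting changed sign in 44 of 468 values in vascular nuclei, 83 of 630 in all nuclei and 22 of 186 in pericyte-led nuclei.

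Same-numbered animals of different groups correlated from -0.143 to 0.311 in vascular nuclei, with 7 of 21 pairs over 0.1, and from -0.344 to 0.440 over all nuclei, with 8 of 21. Animals of the same batch had a median correlation of 0.0714 in vascular nuclei (other batches -0.0209) and 0.223 over all nuclei (other batches -0.0549). The batch block, as the replicate block, changed no call of a member. The replicate block left 0 members called in each of the 12 comparisons, with 0.63 for Abcc9 under OTV:Malat1; with no replicate block, that is with animals unmatched, the split of vascular nuclei gave 333 higher and 665 lower genes. The planned fit of pericyte-led against smooth muscle-led nuclei, with its alternatives, was not run, since 2 nuclei of 1 animal were smooth muscle-led. The smooth muscle genes, at 4 to 22 UMIs each in vascular nuclei, were under the count filter there.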
